A study of Mus musculus with 4 samples.

Results

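The miRNA profile of arthritic synovium was described from the 2 pools collected on day 10, at peak inflammation, of the 4 synovial pools in the series. Members were chosen by their label: every Ct recorded for these 2 pools was used, whatever its value. C57BL/6J hosts were in the serum transfer arthritis model, with K/BxN mice as the source strain of the serum, and each arthritic pool held synovium of 10 mice. The other 2 pools were non-arthritic synovium of day 0, each from 3 mice of the same host strain, and they enter here only as a measure of how closely 2 pools can agree. Serum transfer gives joint inflammation without the host's own autoreactive lymphocytes being needed, so the model covers the effector phase of arthritis. Tissue came from the region of the tibiotalar (ankle) joint, so each pool is a mixture of cells, and fewer cells of a type and less RNA per cell cannot be told apart.

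MicroRNAs are short RNAs that guide Argonaute proteins to messenger RNAs, mainly through the seed, bases 2 to 8 of the mature strand, and lower the stability and translation of those messages. Members that share a seed form families with overlapping targets, and many lie in clusters transcribed as 1 precursor. In inflamed joints the best known are the myeloid miR-223, the NF-kappaB-induced miR-146a, and miR-155 of activated immune cells. Synovial fibroblasts, blood vessels, cartilage, muscle and marrow each contribute miRNAs of their own to such tissue.

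Each miRNA was read by a TaqMan stem-loop assay on nanolitre chips. The value is the cycle at which fluorescence crosses a threshold (Ct), so a lower Ct means more RNA, and 1 cycle is about a 2-fold step if each cycle doubles the product. Panel A and panel B each held 375 miRNA assays on 4 chips, 750 in all, and every pool was run in 2 technical wells per assay. Of the 3000 arthritic wells, 934 gave a Ct, between 2.50 and 26.99. In the text a level is the median Ct of the panel in that pool minus the Ct of the assay, in cycles, so that a positive level lies above the middle of the amplified miRNAs. The order of assays by Ct also depends on how efficiently each assay works, so an order between different miRNAs is an order of assay signals. Each level is relative to its own panel, so levels of the 2 panels are given side by side in the marker lists but are not ranked against each other.

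The 20 highest assays of panel A are named below, and RefSeq (GRCm38.p6) mature sequences were matched for 18 of them. These 18 held 15 different seeds. The sequences shown are those of seed groups with several high members, of the leading single miRNAs, and of near-identical relatives with a far later Ct or none. The seed is in capitals.

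miR-24-3p: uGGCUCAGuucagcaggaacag
miR-125b-5p: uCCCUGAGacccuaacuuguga
miR-125a-5p: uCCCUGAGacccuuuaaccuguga
miR-20a-5p: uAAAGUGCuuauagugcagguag
miR-106b-5p: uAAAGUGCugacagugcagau
miR-17-5p: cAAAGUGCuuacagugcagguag
miR-302b-3p: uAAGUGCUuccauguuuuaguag
miR-99b-5p: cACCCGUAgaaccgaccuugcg
miR-30c-5p: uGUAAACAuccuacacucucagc
miR-30a-5p: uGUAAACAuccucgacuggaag
miR-92a-3p: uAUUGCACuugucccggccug
let-7c-5p: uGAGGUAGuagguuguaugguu
let-7a-5p: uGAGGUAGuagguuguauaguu
miR-126a-3p: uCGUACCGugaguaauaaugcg
miR-223-3p: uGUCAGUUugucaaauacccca

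miR-24-3p is made from chr13:63301251-63301272 and chr8:84208875-84208896, both on the plus strand, and miR-20a-5p and miR-17-5p from the plus strand at chr14:115044183-115044205 and chr14:115043684-115043706. miR-99b-5p (chr17:17830194-17830215) and miR-125a-5p (chr17:17830817-17830840) come from 1 cluster on the plus strand, miR-302b-3p from chr3:127545275-127545297, miR-126a-3p from chr2:26591402-26591423 and miR-223-3p from chrX:96242884-96242905, all on the plus strand.

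A minority of the assays amplified. In panel A 167 of 375 assays gave a Ct in at least 1 of the 4 arthritic wells and 122 in all 4, while in panel B 111 did so in at least 1 well and 67 in all 4. No Ct was recorded in any arthritic well for 472 assays, 62.9% of the 750. Both pools gave a Ct for 216 assays, pool 1 alone for 55 and pool 2 alone for 7. The assays read in pool 1 alone were late ones: their median Ct in pool 1 was 24.8, against 14.1 for the assays read in both pools. The guide sheet deposited with the data puts a single copy close to the highest Ct seen here. A missing Ct thus means not detectable by that assay at this input rather than absent. The assay itself can also matter. The 2 mouse-named miR-467a assays, for example, gave 18.3 and 21.1 on chip A1 and no Ct on chip B2.

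Signal was concentrated in few miRNAs. With Ct turned into 2 to the power of the level and summed over panel A, the 10 highest assays made up 67.2% of the signal in pool 1 and 72.9% in pool 2 (70.05% ± 4.00, SD, n = 2 pools). The single highest, miR-24, made up 17.01% and 16.68%, and 90% of the sum was reached with 25 assays in pool 1 and 22 in pool 2. Panel B was steeper, with 90.7% and 95.2% of its summed signal in 3 assays.

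miR-24, which is processed from the miR-23/27/24 clusters, was the first of panel A in both pools, with a Ct of 3.71 in pool 1 and 5.65 in pool 2 and a level of 9.73 ± 0.96 cycles (SD, n = 2 pools). miR-125b-5p, the mammalian relative of the worm lin-4, followed with Cts of 4.77 and 5.72 and a level of 9.16 ± 1.66. miR-20a, of the miR-17-92 cluster, gave 4.57 and 7.18 (level 8.53 ± 0.48). With a median per chip in place of the panel median, miR-24 (9.82) lay below miR-20a (11.52), miR-99b (11.19) and miR-302b (10.34). By Ct miR-24, miR-125b-5p and miR-20a ranked between 1 and 5 in each pool, and the ranges of neighbours in this order overlapped. miR-99b gave 5.63 and 6.77 (8.21 ± 1.52), and its cluster neighbour miR-125a-5p 6.82 and 7.33 (7.33 ± 1.97). miR-30c gave 4.78 and 7.85 (8.09 ± 0.16) and let-7c 5.44 and 8.38 (7.50 ± 0.26). miR-30c and let-7c were the only neighbours in the order of the 20 whose levels did not overlap between the pools.

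The endothelial miR-126-3p, which lies in an intron of Egfl7, gave 5.91 and 8.70 (7.10 ± 0.36). miR-223, best known from neutrophils and monocytes, gave 7.35 and 9.16 (6.16 ± 1.05), and miR-150, of mature lymphocytes, gave 7.25 and 9.86 (5.85 ± 0.48). miR-191, which is expressed in many tissues, gave 8.22 and 7.47 (6.56 ± 2.86), so that it stood 27th in pool 1 and 7th in pool 2. miR-410 and miR-127, 2 products of the imprinted Dlk1-Dio3 locus, gave 7.40 and 7.06 (7.18 ± 2.57) and 7.41 and 9.45 (5.98 ± 0.88). The remaining members of the 20 were miR-92a, miR-302b, miR-30b, miR-106b, miR-26a, miR-218 and miR-30a, with mean levels between 6.11 and 7.45. The 20th, miR-150, stood at 5.85 and the next assay, miR-214, at 5.55.

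The order within the 20 was loose. Only 4 of the 19 pairs of neighbours kept their order in both pools, among them miR-24 before miR-125b-5p, and miR-223 before miR-30a before miR-127. Of the 20 highest assays of pool 1, 17 were also among the 20 highest of pool 2. Those in the first 20 of pool 1 alone were miR-26a, miR-152 and miR-150, and those of pool 2 alone were miR-191, miR-193b and miR-34a. In 17 of the 20 the level was higher in pool 2, that is, further from the panel median.

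**Figure D1:**
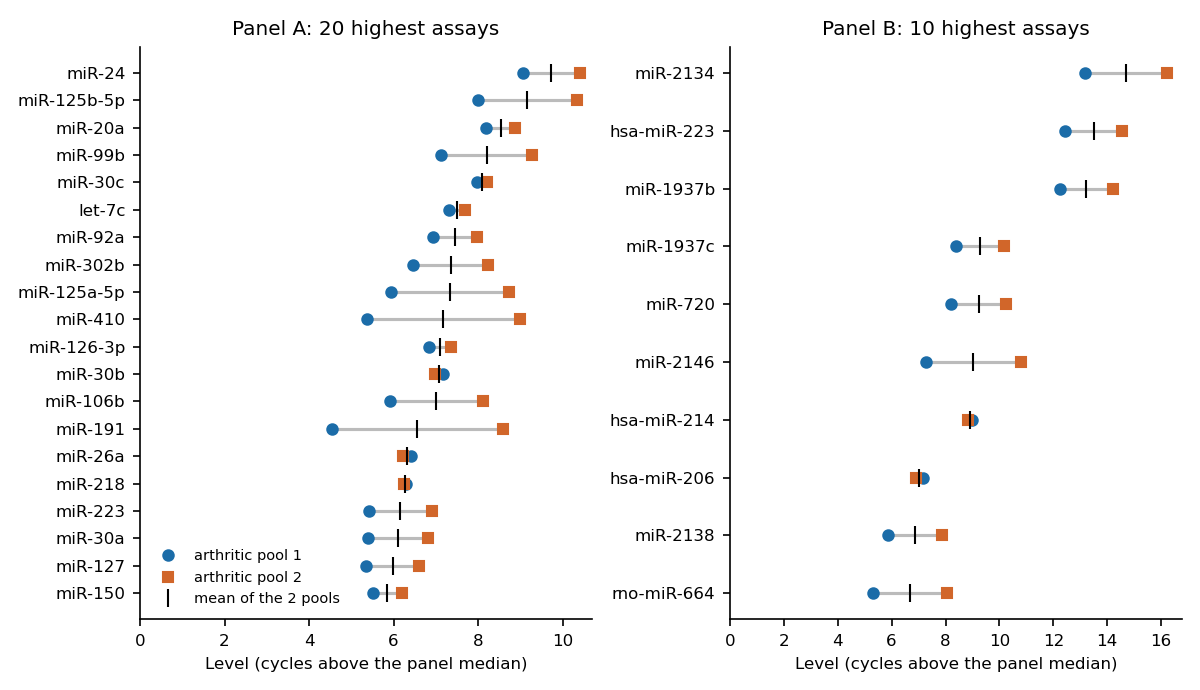
Level of the 20 highest assays of panel A and the 10 highest of panel B, in cycles above the panel median, with 1 circle for arthritic pool 1, 1 square for pool 2 and a black tick at their mean. miR-24 leads panel A at 9.73, miR-191 has the widest gap of the 20 (4.54 and 8.59), and 3 assays of panel B stand apart above 12 cycles.

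Panel B was led by assays of another kind. miR-2134 gave a Ct of 3.54 in pool 1 and 2.96 in pool 2 (level 14.7 ± 2.16, SD, n = 2 pools), the lowest Cts of the panel, and 1 of its pool 2 wells stood at exactly 2.50. That is the lowest Ct recorded in the series and occurs in 2 wells, both of miR-2134, so it may be the least value that can be reported. The level of miR-2134 in pool 2, and its share of the panel B signal, are then lower bounds. The human-named miR-223 assay gave 4.27 and 4.65 (13.5 ± 1.49) and miR-1937b 4.48 and 4.96 (13.2 ± 1.41). These 3 kept 1 order in both pools, and miR-1937b did not overlap with the fourth, miR-1937c (9.29 ± 1.26). miR-720, described in human as a fragment of a transfer RNA, stood at 9.24 ± 1.45. The human-named assays of miR-214, a fibroblast and mesenchymal miRNA, and of miR-206, of skeletal muscle, gave 7.74 and 10.4 (8.91 ± 0.10) and 9.55 and 12.3 (7.03 ± 0.18). miR-2146, miR-2138 and the rat-named miR-664 completed the 10, and 7 of the 10 highest of pool 1 were among the 10 highest of pool 2.

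The pools gave similar orders with level differences of more than 1 cycle for most assays. Across the 139 assays of panel A with a Ct in both pools, Spearman's rho between the levels was 0.93, and across the 77 of panel B it was 0.94. All assays of a pool share its RNA and reverse transcription, and a panel spans Cts of more than 20 cycles, so the coefficient mainly describes that range. The median absolute difference in level between the pools was 1.42 cycles in panel A and 1.46 in panel B. A difference under 1 cycle was seen for 84 of the 216 assays, and a difference of 2 cycles or more for 76. In the 2 non-arthritic pools the same computation gave rho of 0.99 and 0.97 and median differences of 0.41 and 0.80 cycles.

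Before scaling, pool 2 amplified later for most miRNAs. The median Ct over the shared assays was 12.8 in pool 1 and 16.1 in pool 2 in panel A, and 16.7 and 19.2 in panel B, and 193 of the 216 assays were later in pool 2. U6 and snoRNA202 did not move with them. The small nuclear RNA U6 gave 5.78 and 5.67 in panel A and 4.87 and 5.07 in panel B, and snoRNA202 gave 9.41 and 9.45 and then 9.34 and 9.96. snoRNA135 was later in pool 2, with 18.6 against 19.6 and 16.7 against 18.1. U87, Y1 and the plant control miR-159a gave no Ct in any arthritic well. Between the non-arthritic pools the median difference in Ct was -0.15 in panel A and -0.19 in panel B.

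Among the miRNA assays, those numbered 1800 or above were closer to the controls than to the rest, a grouping chosen after the values were seen. The 15 such assays of panel B with a Ct in both pools had a median shift of 0.49 cycles, and 12 of them shifted by less than 1. The other 62 assays of panel B had a median shift of 2.67, and 13 of them shifted by less than 1. miR-1944 gave 17.8 and 17.9, and miR-2138 10.8 and 11.3, while miR-1839-5p went with the majority at 16.5 and 21.3. A level relative to the panel median therefore places those 12 late-numbered assays, and U6 if scaled in the same way, higher in pool 2 than in pool 1. It places miR-1839-5p lower in pool 2.

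**Figure D2:**
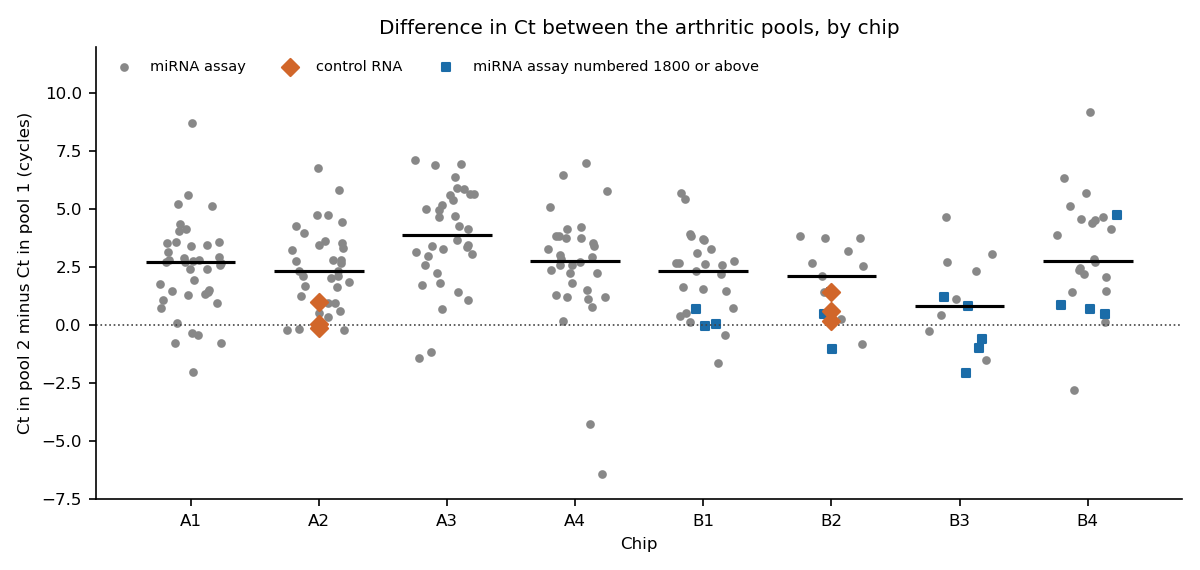
Ct in arthritic pool 2 minus Ct in pool 1 for each miRNA assay with a Ct in both, by chip, with a black line at the chip's median, blue squares for assays numbered 1800 or above and orange diamonds for control RNAs. The chip medians lie between 0.81 (B3) and 3.91 (A3) cycles, and 4 of the 6 control values lie under 1 cycle.

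Chip A3 carried part of the disagreement. Its second listed well of pool 2 lay a median of 4.57 cycles after the first over 24 assays, where the other chips showed medians between -0.48 and 0.58. It gave a Ct for 24 assays against 36 in the first well. Several named miRNAs were read on this chip, and without that well miR-150 moved from 5.85 to 6.92, miR-30c from 8.09 to 8.55, miR-92a from 7.45 to 7.89, miR-30b from 7.07 to 7.64 and miR-223 from 6.16 to 6.11. miR-16 moved from -0.89 to 0.87 and miR-30d from 0.57 to 2.36. All of the 20 highest assays kept their place among the 20 without that well, and rho in panel A was then 0.95. Duplicate wells of pool 1 differed with an SD of 0.43 cycles in panel A, and those of pool 2 with an SD of 1.73.

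**Figure D3:**
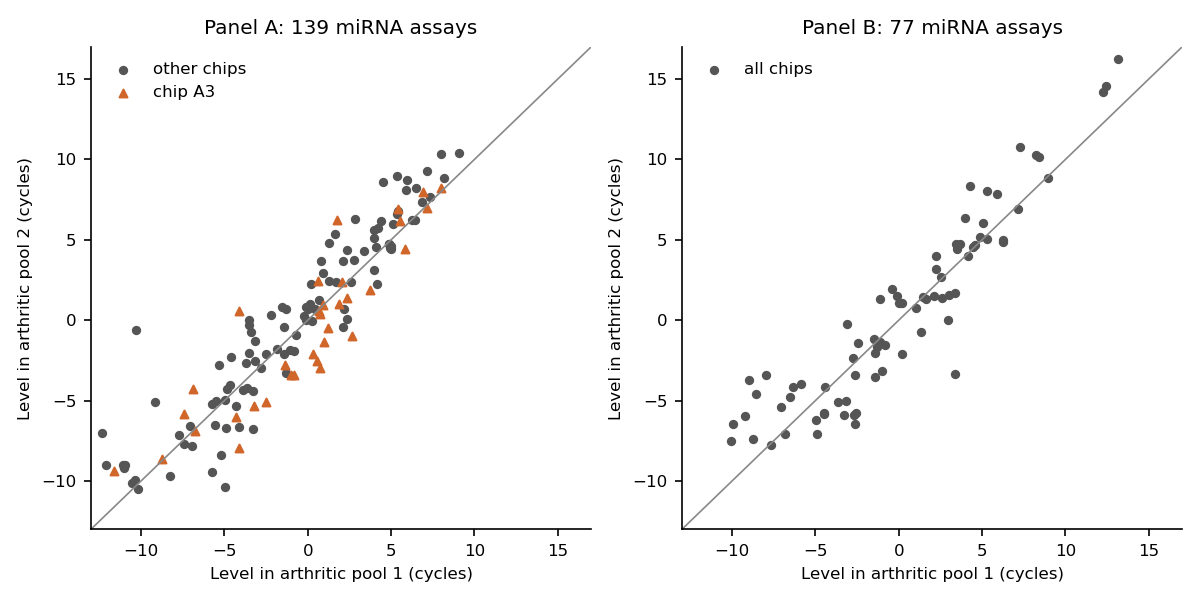
Level in arthritic pool 2 against level in arthritic pool 1, in cycles, for the 139 assays of panel A and the 77 of panel B with a Ct in both pools, with the line of equal levels. Triangles mark chip A3, which sits mostly below the line, and in both panels the highest assays sit above it.

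The largest gap among assays with 4 Cts was that of the human-named miR-196a, transcribed from within the Hox clusters, at 13.3 in pool 1 and 22.5 in pool 2, a difference in level of 6.74 cycles. It was an early assay in one pool and a late one in the other, and its duplicate wells did not overlap between pools. let-7a (17.7 and 26.4) and its opposite strand let-7a# (19.3 and 25.7) were next, with differences of 5.41 and 3.86, followed by miR-224 (3.81) and miR-497 (3.67), both read on chip A3. In the other direction stood the rat-named miR-351 (25.1 and 23.1, a difference of -5.33), miR-1930 (-4.54), miR-712 (-4.10), miR-365 (-4.07) and miR-191 (-4.04). These 5 had earlier Cts in pool 2 than in pool 1. miR-712, which is made from the spacer of the ribosomal RNA precursor, gave 12.4 and 10.8.

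Some miRNAs were read in both wells of 1 pool and in neither well of the other. For pool 1 the earliest were miR-335-3p (19.4 and 18.4 in its wells), miR-1195 (18.9 and 19.7), miR-148a (19.78 and 19.03) and miR-322 (19.9 and 19.4). For pool 2 there were 3: miR-367 (10.1 and 9.78), miR-546 (20.8 and 16.7) and miR-715 (22.5 and 24.9). miR-367 was by far the earliest of these, and it stood 24th of panel A in pool 2. At the other end, the lowest assays with 4 Cts were miR-361 (-10.4 ± 0.20), miR-186 (-10.4 ± 0.28), miR-331-5p (-10.2 ± 0.32), miR-467c (-10.1 ± 1.32) and miR-339-3p (-10.0 ± 1.38).

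Seed families were uneven inside. The let-7 family, which marks differentiated cells, was read in 8 of 9 members, all 8 in 4 wells, with miR-98 giving no Ct. let-7c (7.50 ± 0.26), let-7b (4.81 ± 0.09), let-7i (3.57 ± 0.60) and let-7f (3.36 ± 1.40) were the highest and let-7a the lowest (-7.68 ± 3.83). let-7a and let-7c differ by 1 base, A19G, with the let-7a base first and positions counted from 1 at the 5′ end, and let-7a amplified 12.3 cycles later in pool 1 and 18.1 later in pool 2. let-7b and let-7c also differ by 1 base, G17A, and lay 2.44 and 2.93 cycles apart. The 8 let-7 assays together made up 6.80% and 3.24% of the summed signal of panel A.

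In the miR-17-92 cluster and its paralogs, which are known for roles in cell proliferation and lymphocyte survival, 10 of 13 members gave a Ct. miR-20a, miR-92a (5.83 and 8.08) and miR-106b (6.84 and 7.95) were in the 20 highest. miR-25 stood at 4.96 ± 1.07, miR-19b at 4.71 ± 0.41 and miR-19a, 1 base away (U11C), at -5.40 ± 1.78. miR-17, miR-18b and miR-363 gave no Ct in any arthritic well, although the opposite strand miR-17# gave 19.4 in pool 1 and 21.5 in pool 2. miR-17 and miR-20a share the seed printed above, are encoded in the same cluster and differ by C1U and C12U. The 6 cluster members matched on chromosome 14 (chr14:115043684-115044496) thus ran from a Ct of 4.57 to 16.9 in pool 1 and from 7.18 to 22.7 in pool 2, with miR-17 not read.

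All 6 assays of the miR-30 seed gave 4 Cts, and miR-30a, miR-30b and miR-30c were among the 20 highest while miR-30d (0.57 ± 0.27), miR-384-5p (-2.90 ± 0.10) and miR-30e (-4.84 ± 0.71) were lower. miR-30a and miR-30e differ by C13U and lay 9.74 and 12.2 cycles apart. In miR-23/24/27, miR-27b (4.79 ± 0.25) and miR-27a (4.31 ± 0.33) followed miR-24, miR-23b was late (-4.55 ± 0.41) and miR-23a gave no Ct. Among miR-99, miR-100 and miR-125 members, miR-125b-5p, miR-99b and miR-125a-5p were high, miR-100 stood at 0.38 ± 0.66 and miR-99a at -2.31 ± 0.25. miR-29c (4.81 ± 0.11) and miR-29a (3.84 ± 0.67) lay above miR-29b (-2.84 ± 0.44). The miR-15/16 family was low, from miR-15b (1.53 ± 1.32) to miR-15a (-8.71 ± 0.09, with 1 well in pool 2). In this family miR-322 was read in pool 1 only, while its opposite strand miR-322# gave 17.5 and 20.7. miR-221 stood at 1.85 ± 0.70 and miR-222, its cluster partner, at -5.19 ± 1.21, with 1 well in pool 2. By summed signal of panel A, the CCCUGAG seed of miR-125a-5p and miR-125b-5p made up 10.1% in pool 1 and 21.1% in pool 2, and the AAAGUGC seed 11.4% and 9.18%.

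**Figure D4:**
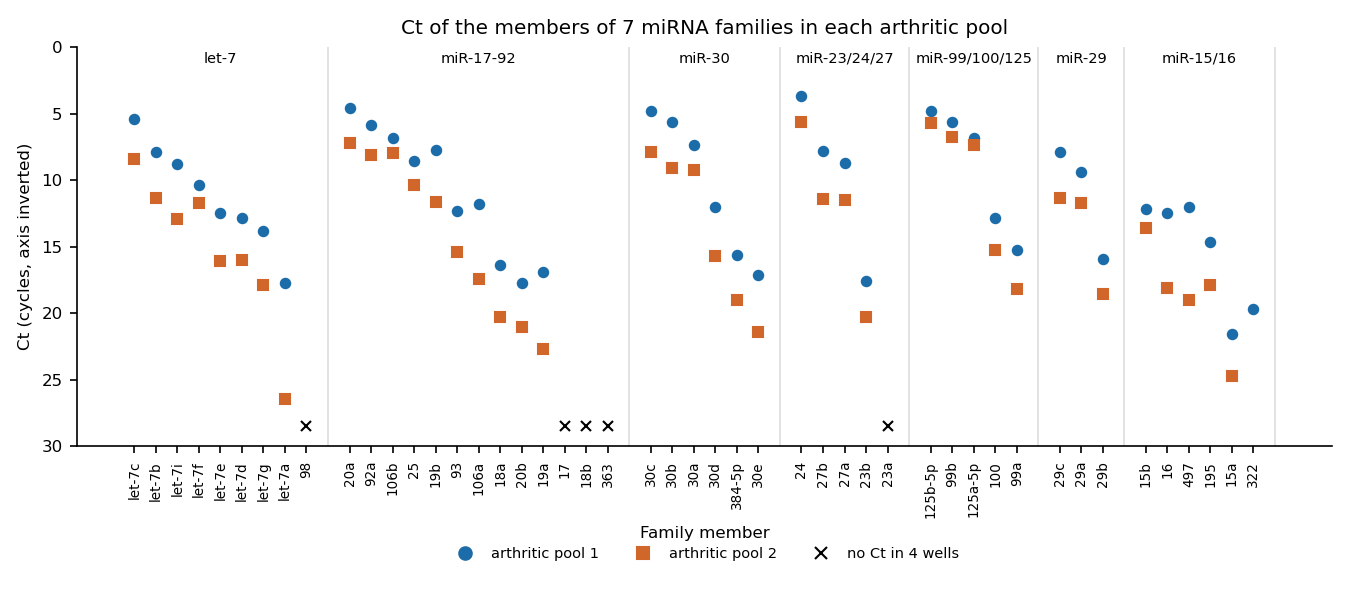
Ct of each member of 7 miRNA families in arthritic pool 1 (circles) and pool 2 (squares), on an inverted axis so that more RNA is higher, with crosses for members without a Ct in any of the 4 wells. The let-7 assays run from 5.44 (let-7c) to 17.7 (let-7a) in pool 1 and from 8.38 to 26.4 in pool 2, and miR-98, miR-17, miR-18b, miR-363 and miR-23a have no Ct.

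The cluster of miR-302 and miR-367, known from pluripotent stem cells, gave uneven readings. miR-302b had Cts of 5.91 and 6.68 in the wells of pool 1 and 5.58 and 10.0 in those of pool 2 (level 7.35 ± 1.25). miR-302a, miR-302c and miR-302d gave no Ct in any arthritic well, and miR-367 gave one in pool 2 only. The seed of miR-302b, AAGUGCU, is offset by 1 base from the AAAGUGC seed of miR-20a and miR-106b, as the printed sequences show.

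Markers of immune cells were uneven: a few were among the 20 highest, and the others lay nearer the panel median, were late or gave no Ct. In the myeloid list, miR-223 was in the 20 highest, miR-142-3p, a miRNA of all blood cell lineages, gave 10.4 and 16.0 (1.21 ± 1.65), its opposite arm miR-142-5p a late Ct of 24.6 in pool 1 only, and miR-511, encoded in the macrophage mannose receptor gene, no Ct. In the lymphoid list, miR-191 and miR-150 were in the 20 highest, and miR-181a (2.02 ± 0.49) lay above and miR-342-3p (-2.06 ± 1.90) below the panel median. miR-155 was read at 21.8 and 21.4 in pool 1 and not at all in pool 2. miR-181b was not analysed here. The erythroid miR-451 gave 11.56 and 16.52 (0.37 ± 1.18), on chip A3, while miR-144 and miR-486 gave no Ct.

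All 11 inflammation-responsive miRNAs gave a Ct in at least 1 well, beside 167 of 375 assays of panel A and 111 of 375 of panel B. Of the 11, 10 gave a Ct in both pools, and 7 had mean levels above the median of their own panel. The 9 of them on panel A with a Ct in both pools had a median level of 1.85, where the median of the panel is 0 in each pool by construction. After miR-125b-5p and miR-203 the highest on panel A were miR-146a (10.0 and 12.3, level 3.25 ± 0.69), a brake on NF-kappaB signalling through Traf6 and Irak1, and miR-21 (8.63 and 13.8, level 3.21 ± 1.31). On panel B miR-212 stood at 2.71 ± 0.70, and on panel A miR-146b at 1.84 ± 0.84. miR-132, the cluster partner of miR-212, gave 18.1 and 15.7 in pool 1 and a single Ct of 15.5 in pool 2. miR-31 was late (16.0 and 22.8). miR-21 ranked 30th in pool 1 and 50th in pool 2, so the pools differ in where they place it.

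Every stromal, vascular and cartilage marker gave a Ct in at least 1 arthritic well. Of all assays, 167 of 375 in panel A and 111 of 375 in panel B did so. Of the 6 fibroblast and mesenchymal assays, 4 gave a Ct in all 4 wells and 5 in both pools. The 4 on panel A read in both pools had a median level of -1.72. miR-199b on panel B gave 10.5 and 14.3 (5.56 ± 0.96), and the mouse-named miR-214 assay on panel A 7.65 and 10.1 (5.55 ± 0.62). miR-199a-3p stood at 0.83 ± 2.56. Low members were miR-10b (-4.28 ± 1.48) and miR-10a (-5.59 ± 1.82, with 1 well in pool 2), and miR-199a-5p was read in pool 1 only. miR-214 and the Mir199a-2 copy of miR-199a, on chromosome 1, are made from 1 transcript, Dnm3os. The same mature miR-199a strands are also encoded by Mir199a-1 on chromosome 9. The endothelial miR-126-3p lay well above its opposite arm miR-126-5p (0.82 ± 1.79) and miR-296-5p (-4.35 ± 0.42). Of the smooth muscle pair, miR-145 stood at 4.78 ± 1.15 and miR-143 at -2.21 ± 1.68. The cartilage miR-140, from an intron of Wwp2, gave 14.1 and 19.3 (-2.29 ± 1.37), its human-named opposite arm miR-140-3p on panel B 14.2 and 16.5 (2.63 ± 0.10), and miR-455 16.7 and 20.4 (-4.13 ± 0.32).

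Markers of neighbouring tissues were present in part. Of the skeletal muscle list, miR-206 was high and miR-133a, on chip A3, gave 10.89 and 15.03 (1.45 ± 0.59), while miR-133b and the mouse-named miR-1 assay gave no Ct and the rat-named miR-1 assay gave 1 late Ct of 26.7 in pool 1. All 4 adipose assays were read, with the human-named miR-378 at 5.18 ± 1.66 on panel B, and miR-193b at 4.55 ± 2.46 and miR-365 at -7.15 ± 2.88 on panel A. The fourth, the human-named miR-196a on panel B, stood at 0.03 ± 4.76 and differed widely between the pools (13.3 and 22.5). Of 10 mouse-named epithelial assays, all on panel A, 6 gave no Ct, beside 55.5% of all assays of the panel. Among the 6 were miR-200a, miR-200b, miR-141 and miR-429, and the human-named miR-200b assay gave 1 Ct of 24.5 in pool 1. miR-200c and miR-205 were late. miR-203, known from skin keratinocytes, was early, with 7.83 and 11.58 (4.70 ± 0.33), and miR-182 stood at -0.94 ± 0.73. The liver miR-122 and miR-194 gave no Ct, and miR-192 stood at 0.55 ± 0.61. Of 5 neural markers 4 gave no Ct and miR-128a gave 1 late Ct. What share of the profile came from muscle, fat or skin in the dissected tissue was not tested.

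**Figure D5:**
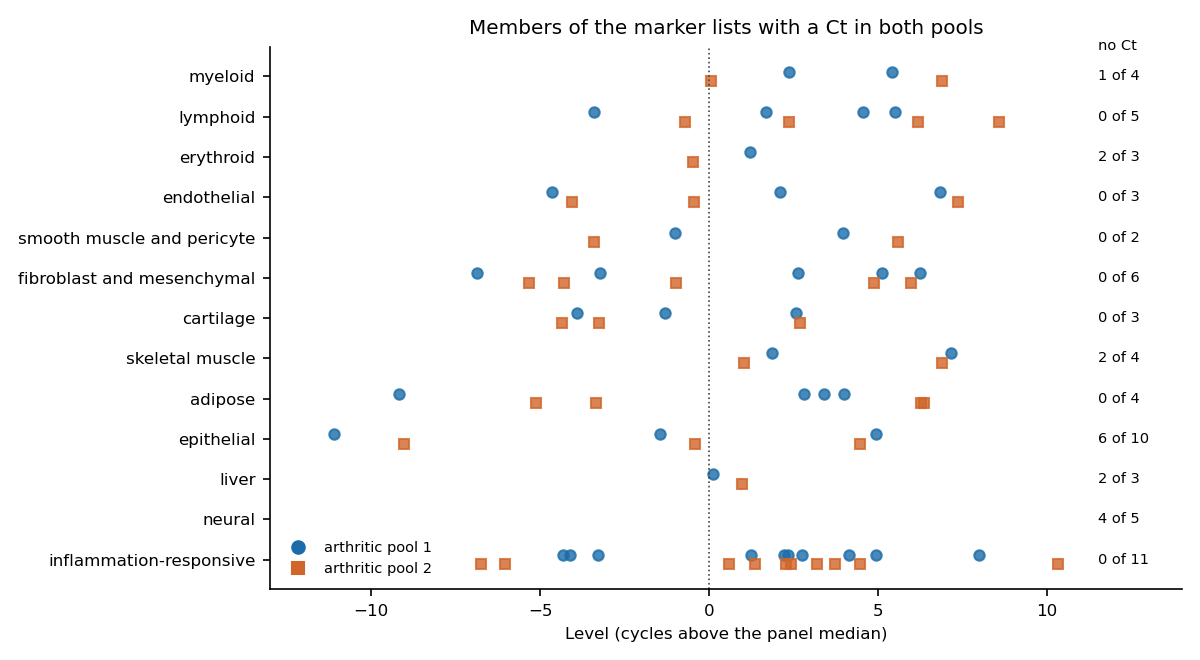
Level of each member of the marker lists with a Ct in both arthritic pools, in cycles above the median of the assay's own panel, with circles for pool 1 and squares for pool 2, and at the right the number of measured members without any Ct. Epithelial and neural lists have 6 of 10 and 4 of 5 members without a Ct, and the inflammation-responsive list has none of 11, where 55.5% of all assays of panel A and 70.4% of panel B have none.

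The imprinted Dlk1-Dio3 locus, whose miRNAs are expressed from the maternal chromosome, holds 72 mouse-named assays of 51 genes between Mir770 and Mir3072 (chr12:109563692-109747960, GRCm38.p6). In panel A 20 of 47 gave a Ct (42.6%), beside 48.4% of all mouse-named assays of the panel, and in panel B 5 of 25 (20.0%), beside 24.1%. Mean levels of the 12 assays of panel A read in both pools ran from -7.61 (miR-136) to 7.18 (miR-410), with a median of -0.23. miR-434-3p stood at 2.90 ± 1.13, miR-381 at 1.22 ± 1.48 and miR-411 at 0.98 ± 0.39. miR-410 and miR-127 were thus well above the other members.

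The 2 arms of a hairpin were seldom alike. Of 44 pairs of 5p and 3p assays on the same panel, 22 gave a Ct on neither arm, 10 on 1 arm only and 12 on both. The widest gap was in miR-125a, with the 5p arm at 6.82 and 7.33 and the 3p arm at 25.8 in pool 1 only. The 5p arm of miR-339 was 9.45 and 9.84 cycles earlier than the 3p arm, whereas in miR-331 the 3p arm was earlier by 9.07 and 10.6 and in miR-532 by 6.25 and 7.62. miR-142 and miR-337 had gaps of 14.2 and 13.3 cycles in pool 1. The closest arms in pool 1 were those of miR-1839, miR-335 and miR-340. In pool 2 the arms of miR-1839 lay 3.58 cycles apart in the opposite order, and miR-335-3p and miR-340-5p gave no Ct.

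Strands that the assay names mark with # as the minor product gave the same picture. Of 115 such assays 42 gave a Ct in an arthritic well and 21 in all 4. Over all 750 miRNA assays 278 and 189 did so, and over the 375 of panel B 111 and 67. For 96 of them the other strand was also measured: both strands gave a Ct in 27, the other strand alone in 38, the # strand alone in 10 and neither in 21. Where both were read in both pools, 12 of 14 # strands were later in both pools, and over all 14 pairs the # strand was later by a median of 6.91 cycles in pool 1 and 7.05 in pool 2. Most of these pairs lie across panels, where U6 differed by under 1 cycle within a pool. The other pairs of the 14, miR-93 and let-7a, were later in pool 1 and earlier in pool 2. Outside the 14, most # strands read beside the other strand were later in pool 1. Exceptions were miR-503#, miR-322# and the human-named miR-136#, earlier by 2.93, 2.12 and 0.31 cycles. miR-17#, miR-193#, miR-674# and miR-872# gave 4 Cts while the other strand gave none. miR-21# (25.9 and 25.1) was 17.3 and 11.4 cycles after miR-21, and miR-99b# 16.0 and 19.5 after miR-99b.

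Assays of 1 name under different species prefixes did not always read alike. Pairs were matched by name alone, and names such as miR-455 carry no arm, so the assays of a pair may read different strands. Of 66 pairs with the same name, 37 gave no Ct on either side, 15 on 1 side only and 14 on both, and all 8 pairs read in both pools on both sides kept their order. The mouse-named and human-named miR-214 assays lay 0.09 and 0.29 cycles apart, and the miR-146b and miR-455 assays 0.75 and 0.98 and 1.26 and 0.47 apart. The human-named miR-223 assay was 3.08 and 4.51 cycles earlier than the mouse-named one, and the human-named miR-143 assay 2.36 and 5.34 earlier. The 2 mouse-named miR-10b assays, on chips A3 and B4, lay 5.18 and 3.68 apart, and the rat-named miR-224 assay was 4.71 and 5.42 earlier than the mouse-named one. The mouse-named miR-223 and miR-143 assays and both miR-224 assays were also read on chip A3, so their pool 2 Cts include its late second well. With the first well alone the mouse-named miR-143 assay stood at 18.3 in pool 2 rather than 19.4. Gaps between assays of 1 name were as large as many gaps between different miRNAs of the profile.

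Base composition had little to do with level but went with the difference between the pools. Over the 99 mouse-named assays of panel A with 4 Cts and a matched sequence, Spearman's rho between GC content and mean level was -0.03, and the 18 matched among the 20 highest had a median GC content of 44.5% against 45.5% for the others. Between GC content and the level in pool 1 minus that in pool 2, rho was -0.32 over the same assays, which share 2 RNA pools and 4 chips. Of 30 assays with over 50% GC, 24 were higher in pool 2, with a median difference of -1.30 cycles, against 31 of 50 between 40% and 50% GC (-0.38) and 7 of 19 at or below 40% (0.16).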

How the data were processed

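Raw Ct values from a BioMark system were deposited by the authors for 8 chips, per the file headers, with 999 where no Ct was recorded, which was read from the values. Total RNA was isolated with the mirVana kit and 500 ng were reverse transcribed, per the labels' protocols. Neither headers nor labels state the Ct threshold. The authors' table of group differences was not used.

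Wells were mapped to pools by row name. A pool's Ct is the mean of its wells with a Ct under 35, and its level is the panel's median Ct, over miRNA assays with a Ct in both arthritic pools, minus that Ct. Values are given with the SD over 2 pools, which the labels call biological replicates. No test was made, since 2 pools of 1 group have nothing to be tested against. Assays were named by rank (20 and 10 highest per panel, 5 lowest, 5 widest gaps per direction), by marker lists and by families. Members and lists were chosen with earlier results of these data known. List members were matched to the mouse-named assay, else the human-named one. Sequences came from RefSeq, matched for 143 of 225 mouse-named assays with a Ct. The computation of levels was checked on simulated wells with small noise, no missing Ct and the same pool shift for every assay. That setting is simpler than these data. Python 3.11.15 with pandas 2.3.3 and scipy 1.17.1 was used.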

Additional observations from a re-analysis of the deposited data

How the results depend on the processing

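The overall counts, agreement values and signal share, and 44 named levels, were recomputed under 9 other settings and, where possible, with each pool left out; values of lists, seeds, arms and GC content were not. Counts are taken as unchanged within 1.5 times, the signal share within its SD over pools, and agreement values within 10%. The count of 216 assays in both pools became 189 with Cts in all 4 wells, 183 with a Ct limit of 24 and 180 with mouse-named assays alone, all within that bound. The median difference between the pools depended most on the reference: in panel A it was 2.84 cycles with raw Ct and 2.94 with U6 as the reference, and in panel B 2.34 and 2.20, because both keep the later Cts of pool 2. In panel A it was 1.10 over assays with 4 Cts, 1.11 with the lowest Ct of a pool's wells, 1.21 with the Ct limit of 24 and 1.23 without the second listed pool 2 well of chip A3. In panel B it was 1.72 with a median per chip and 1.95 with mouse-named assays alone. The share of the 10 highest became 88.8% with a median per chip, which removes differences between chips, and was 67.2% and 72.9% with only 1 pool. Of the 20 highest assays of panel A 15 remained with a median per chip, where miR-139-5p, miR-152, miR-19b, miR-203 and miR-214 entered. With pool 1 alone 19 remained, with pool 2 alone 18, and under the other 8 settings all 20. Panel mean, raw Ct and U6 shift a whole panel of a pool alike, so they could not change this order, rho or the signal share. Nor could the filters by 4 Cts, Ct limit or mouse name remove any of the 20. Among the 8, only the lowest Ct and the A3 well could have done so. Of 10 in panel B 6 remained with mouse-named assays alone, because that setting leaves out the human-named and rat-named members of the 10. With a median per chip 9 remained, with pool 1 alone 8, with pool 2 alone 9, and otherwise all 10. Of the settings that kept all 10, only the lowest Ct could have changed the list. Of the 44 levels, 24 moved by more than their SD over pools without pool 2, 9 without pool 1, 15 with a median per chip, 13 with the panel mean, 14 over assays with 4 Cts, 6 with the lowest Ct and 5 without the A3 well, and all 44 with raw Ct or U6, which change the scale. With the Ct limit of 24, 15 of 35 moved, and with mouse-named assays alone 0 of 38. With 1 pool left out, the agreement values and the count in both pools have no value. No paired analysis was possible because no result comes from a test. Late Cts limit the profile: of 55 assays read in pool 1 alone, 4 had a Ct under 20.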

Other observations

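A few assays read in 3 or fewer wells went further against the general shift than any with 4 Cts. miR-685 gave 1 Ct of 23.1 in pool 1 and a mean of 16.7 in pool 2, and miR-184 gave 26.7 and 22.5. Assay names of another species amplified at different rates: 39 of 76 human-named assays (51.3%), 225 of 596 mouse-named (37.8%) and 14 of 78 rat-named (17.9%) gave a Ct in at least 1 arthritic well. With panel A split into 3 equal parts by mean level, the median of the level in pool 1 minus that in pool 2 was -0.97 cycles in the highest part (47 assays), -0.02 in the middle part (46) and -0.26 in the lowest (46).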
